A study of Mus musculus with 6 samples.

Results

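The Gimap cluster is a run of 8 genes on mouse chromosome 6 (Gimap8, Gimap9, Gimap4, Gimap6, Gimap7, Gimap1, Gimap5 and Gimap3, in order along the chromosome) that encode GTPases of the immunity-associated protein family. The region was selected on measured values: the ATAC-seq region with the highest fold enrichment rank among those present in every MMF list and absent from every control list lies between Gimap8 and Gimap9. All peaks in a window of 250 kb around it on chromosome 6 (mm10) were therefore taken, together with the Gimap genes as GENCODE M21 annotates them. The first region inside the window starts at 48601370 and the last ends at 48842779. The nearest regions outside lie 5345 bp before it, with 1 low peak in MMF replicate 1 (fold enrichment 3.61), and 10134 bp after it, with peaks in all 6 lists (12.7 to 17.0). This window held 125 of the 438111 peaks of the 6 samples, and they merged into 32 of 112852 regions. The 8 genes were 8 of 21911 protein-coding genes.

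GIMAP proteins bind guanine nucleotides and many sit on the membranes of lysosomes, mitochondria or the endoplasmic reticulum. They are known mainly from lymphocytes, where loss of Gimap1 or Gimap5 shortens the life of T and B cells, and several members have been linked to proteins of the Bcl2 family, which set the threshold for apoptosis. ATAC-seq measures where the transposase Tn5 can cut, so that a peak marks DNA that is accessible in the cells.

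The cells were L-GMP cells, the leukemic granulocyte-macrophage progenitors that serve as leukemia stem cells (LSCs) in a mouse model of acute myeloid leukemia driven by a retroviral MLL-AF9 fusion, with the genotype given as WT and the tissue as blood. They were grown in medium with mouse IL3 and sorted before tagmentation. The 3 MMF samples had received mycophenolate mofetil (MMF), a prodrug that blocks the IMPDH enzymes of guanine nucleotide synthesis, for 24 h, and the 3 control samples carried the same fusion and had not. No label says that the samples of a group came from separate mice, so the spread between them may be technical. Strain and age are not in the labels, and the MMF dose and time differ between the study's methods and its figure legends.

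Each sample has its own peak list, and 58496 to 63911 peaks in the control lists and 80893 to 86556 in the MMF lists lay on the chromosomes used. Sequencing depth is unknown, but the fold enrichment and p-value of a peak give the reads at its summit, with a genome-wide background of 0.620 to 0.729 reads in the control lists and 0.676 to 0.909 in the MMF lists. A position was tested for accessibility only where a peak was called, and a peak called against this background had at least 4 summit reads in every list but that of MMF replicate 1, where it had at least 5. Fewer accessible cells and less accessibility per cell cannot be told apart in such bulk samples. The progenitor identity could not be read from promoter peaks alone. Of 12 granulocyte-macrophage progenitor markers, 10 had a promoter peak in some list, beside 63.6% of all protein-coding genes. Flt3, Cebpa and Kit had one in all 6 lists, and Mpo and Prtn3 had none. Elane and Fcgr3 each had one in all MMF lists but in only 1 control list. Mature myeloid markers had one in 11 of 11, and erythroid and megakaryocyte markers in 6 of 8.

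The sequences under the 4 regions that the results turn on are 300 bases each, read from the plus strand of GRCm38 and centred on the summit. Capitals mark the stretch between the leftmost and the rightmost summit over the lists with a peak. Region 8 (chr6:48668071-48668370) is the MMF-only region, and regions 14 (chr6:48698949-48699248), 20 (chr6:48737116-48737415) and 25 (chr6:48785132-48785431) are those whose MMF values all lay above all control values.
region 8: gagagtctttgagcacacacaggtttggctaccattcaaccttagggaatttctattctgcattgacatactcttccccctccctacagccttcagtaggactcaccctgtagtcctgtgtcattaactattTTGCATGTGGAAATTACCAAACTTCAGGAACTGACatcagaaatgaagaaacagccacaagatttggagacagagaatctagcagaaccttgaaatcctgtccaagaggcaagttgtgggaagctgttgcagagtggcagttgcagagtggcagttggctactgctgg
region 14: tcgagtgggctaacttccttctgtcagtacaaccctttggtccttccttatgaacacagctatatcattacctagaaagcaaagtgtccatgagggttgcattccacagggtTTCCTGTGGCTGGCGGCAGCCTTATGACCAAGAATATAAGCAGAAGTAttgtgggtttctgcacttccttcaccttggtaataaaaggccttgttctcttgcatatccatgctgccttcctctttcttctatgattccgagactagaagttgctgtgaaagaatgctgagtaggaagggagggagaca
region 20: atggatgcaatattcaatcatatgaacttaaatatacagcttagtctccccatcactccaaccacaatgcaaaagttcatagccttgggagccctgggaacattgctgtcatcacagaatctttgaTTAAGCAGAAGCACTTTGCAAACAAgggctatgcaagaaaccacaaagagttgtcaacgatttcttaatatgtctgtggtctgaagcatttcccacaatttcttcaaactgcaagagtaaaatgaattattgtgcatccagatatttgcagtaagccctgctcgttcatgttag
region 25: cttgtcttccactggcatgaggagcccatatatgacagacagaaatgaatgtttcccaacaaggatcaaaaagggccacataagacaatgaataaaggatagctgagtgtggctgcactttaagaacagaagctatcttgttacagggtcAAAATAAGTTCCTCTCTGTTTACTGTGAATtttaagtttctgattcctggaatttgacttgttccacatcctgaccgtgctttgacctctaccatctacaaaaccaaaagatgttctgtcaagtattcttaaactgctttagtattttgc
The summits of the lists fell within 34 bp of each other in region 8, 47 bp in region 14, 24 bp in region 20 and 29 bp in region 25.

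Regions 8, 14 and 25 held none of 11 motifs searched on both strands, while region 20 held 2 copies of the RUNX string. The strings were TTGCNNAA for C/EBP, GAGGAAGT for PU.1, CCGGAAGT for ELK1 (which shares its last 6 letters with the PU.1 string), AACCACA for RUNX, TGANTCA for AP-1, AGATAA for GATA, GAAANNGAA for IRF, CCTTTGA for TCF/LEF, CCACNCCC for KLF1, CCAAT for NF-Y, and a longer one for CTCF. Of all regions, 18.9% held the C/EBP string, 9.10% PU.1, 1.51% ELK1, 13.3% RUNX, 18.7% AP-1, 11.7% GATA, 9.98% IRF, 5.07% TCF/LEF, 12.3% KLF1, 32.8% NF-Y and 6.13% CTCF in the 300 bases around the summit, and 20.5% held none of them. In the window, 10 of the 32 regions held none. The RUNX strings of region 20 began 91 bp to the left and 14 bp to the right of its summit, both on the plus strand.

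Region 8 had no CG dinucleotide in its 300 bases, as 5.998% of all regions do, and a GC content of 46.0%. Its right part runs into a repeat: the genome sequence is soft-masked from 48668324 to 48668574, starting 103 bp to the right of the middle MMF summit. Of the 551 31-base words in the whole region, 339 (61.5%) occur once on the primary chromosomes, and the most frequent word occurs 2002 times. All 31 words over the middle summit occur once. All words of regions 14, 20 and 25 occur once.

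The cluster held peaks in every sample, and the MMF lists had more of them in number but fewer for their length. There were 20, 18 and 18 peaks in the window in control replicates 1 to 3 and 24, 24 and 21 in MMF replicates 1 to 3. The means were 18.7 ± 1.15 (SD, n = 3) and 23.0 ± 1.73 (SD, n = 3). Per 10000 peaks of the list, the control samples had 3.13, 2.90 and 3.08 and the MMF samples 2.77, 2.79 and 2.60, so that the order of the groups turned. With all lists cut to the length of the shortest, the MMF mean fell 2 peaks below the control mean.

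**Figure D1:**
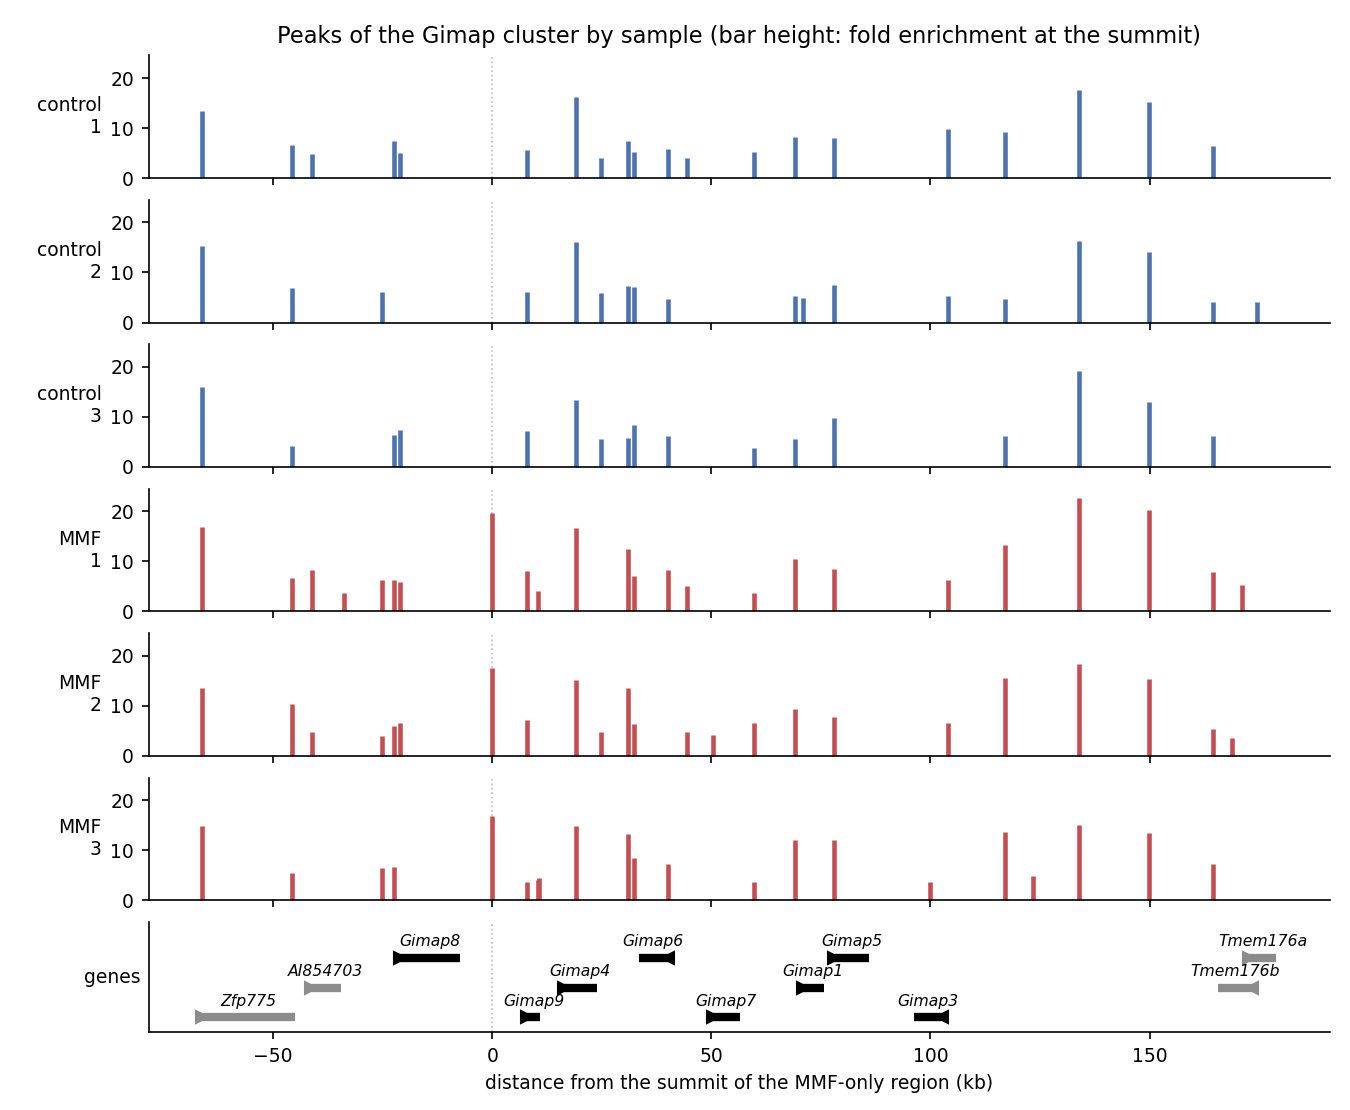
Peaks of the Gimap cluster in the 3 control (blue) and 3 MMF (red) samples, with the fold enrichment at the summit on the vertical axes and the distance from the MMF-only summit, in kb, on the horizontal axis. Black bars are Gimap genes and grey bars are other protein-coding genes (without the readthrough Gm28053), with arrowheads at their starts. A tall bar stands at 0 in each MMF sample and in no control sample.

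Of the 32 regions, 12 had a peak in all 6 lists, 11 in 2 to 5 lists and 9 in a single list. The share found in all lists, 37.5%, was near the 36.5% of all regions. Only 1 region (3.13%) was gained, that is, present in 3 of 3 MMF lists and 0 of 3 control lists, where 6% of all regions were. No region of the window was lost, and 0.182% of all regions were.

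The gained region is region 8, from 48668074 to 48668654, which lies between genes, 7926 bp upstream of the Gimap9 start. Its fold enrichment was 19.7, 17.6 and 16.8 in MMF replicates 1 to 3, a mean of 18.0 ± 1.48 (SD, n = 3), and no control list had a peak there. Within their own lists, these peaks stood at percentile ranks of 97.6, 95.7 and 95.4, where 100 is the peak of highest fold enrichment. In all 3 MMF samples it was among the tallest peaks of the cluster, at the height of regions that were accessible in every sample. The summit held 55, 42 and 35 reads, or 60.5, 59.5 and 51.7 times the genome-wide background of each list. The control lists called peaks against their background from 5.49, 5.78 and 6.45 times that level. No fold change can be given against lists without a peak, and since the region was chosen by these values it was not tested.

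**Figure D2:**
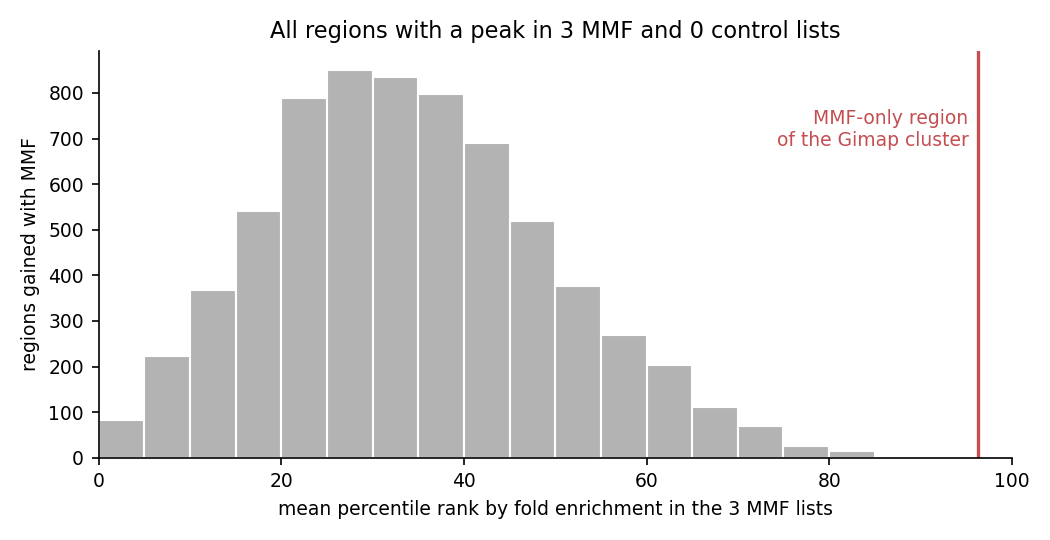
Number of regions gained with MMF (vertical axis) by the mean percentile rank of their peaks in the 3 MMF lists (horizontal axis, bins of 5 points). The red line marks the MMF-only region of the Gimap cluster at 96.3, to the right of all other gained regions.

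Among all 6772 gained regions the median of the mean rank was 33.1, and the median of the mean fold enrichment was 5.76. Region 8 stands first by mean rank, which is the value it was chosen by.

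The regions elsewhere whose ranks over the 6 samples were nearest to those of region 8 lay far from any protein-coding gene start. By Euclidean distance in rank points, with 0 for no peak, they were nearest to the starts of Desi2 (12.7 points, on chromosome 1, inside Catspere2), Jak1 (13.7, chromosome 4), Ank3 (13.7, chromosome 10, inside that gene), Ccna1 (14.9, chromosome 3) and Jak2 (15.6, chromosome 19). Their summits stood 17336 to 89361 bp from those starts. Jak1 and Jak2 encode kinases that relay cytokine signals, Ank3 a membrane adaptor and Ccna1 a cyclin. Their mean fold enrichment in the MMF lists ran from 14.6 ± 0.499 (SD, n = 3) near Jak1 to 16.3 ± 1.34 (SD, n = 3) near Desi2. All but the Ank3 region had a low peak in 1 or 2 control lists, with a fold enrichment of 3.47 to 4.05.

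Of the 12 regions present in all lists, 3 had every MMF fold enrichment above every control value and none had every MMF value below, against 27.2% and 3.97% of all regions with a peak in all lists. By summit reads over background the counts were the same, against 29.2% and 7.49%. These shares are near the background. The mean fold enrichment was higher with MMF in 11 of the 12 and lower in 1, beside 71.7% of all 41182 such regions with a higher mean, and the median log2 ratio of the means was 0.19 against 0.16 over all of them. The regions were compared with limma on normal scores of the within-list rank, adjusted by Benjamini-Hochberg over all 41182. The split by direction moved with the scaling, and with lists of equal length this score was higher in 4 and lower in 5 of the 9 regions left. With ranks taken among the shared regions only, a setting added after the data were seen, it was higher in 6 and lower in 6. Of the 12, 2 were called higher and 0 lower, beside 5.83% and 0.185% of all. Since the window was chosen from a difference between these same samples, these calls are no independent evidence about the cluster.

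Region 14 spans 48698790 to 48699313 between Gimap4 and Gimap6, past the 3′ end of both genes. In control replicates 1 to 3 its fold enrichment was 7.46, 7.38 and 5.86, and in MMF replicates 1 to 3 it was 12.5, 13.5 and 13.3, so the groups did not overlap. The means were 6.90 ± 0.902 and 13.1 ± 0.565 (SD, n = 3 each), a ratio of 1.90. The log2 ratio of 0.92 compares with the median of 0.16 over all shared regions. The score rose by 1.02 ± 0.193 (SE; limma adjusted p = 0.0289), and summit reads over background rose from 24.9 ± 2.01 to 55.6 ± 9.15 (SD, n = 3 each).

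Region 25 spans 48784977 to 48785442, between genes and 14431 bp upstream of the Gimap3 start. The control samples had a fold enrichment of 9.25, 4.73 and 6.17 and the MMF samples 13.2, 15.6 and 13.6. Again every MMF value lay above every control value, with means of 6.72 ± 2.31 and 14.1 ± 1.30 (SD, n = 3 each), a ratio of 2.10 and a log2 ratio of 1.07. The score rose by 1.34 ± 0.316 (SE; limma adjusted p = 0.0486).

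Region 20 spans 48736956 to 48737622, 1788 bp upstream of the Gimap1 start and in an intron of the readthrough Gm28053, a transcript unit that runs from Gimap7 into Gimap5. In control replicates 1 to 3 it had 8.22, 5.37 and 5.66, against 10.4, 9.36 and 12.0 under MMF. The groups did not overlap, but the score difference of 0.788 ± 0.246 (SE) did not pass the test (limma adjusted p = 0.0947).

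The calls of regions 14 and 25 were close to the threshold. Their direction was the same in 13 of 13 alternative fits. Since every MMF value lay above every control value in both regions, leaving out a sample could not turn it. The shared direction is therefore no further support for these calls. With lists of equal length the adjusted p was 0.0605 for region 14 and 0.0855 for region 25, and with ranks taken among the shared regions only it was 0.0616 and 0.0850. The latter setting called 594 regions higher and 175 lower genome-wide, where the within-list ranks gave 2402 and 76. With the replicate number as a block the values were 0.0605 and 0.0795. Over all 13 alternatives the adjusted p ran from 0.00285 to 0.0968 for region 14, which was called in 6, and from 0.00680 to 0.141 for region 25, called in 4. The call was lost for region 14 without control replicate 3 (0.0621) and for region 25 without control replicate 2 (0.0828) or 3 (0.102). The 3 fits that left out an MMF sample called 0 of all shared regions by limma (8202 to 9037 at an unadjusted p under 0.05), so they count among the alternatives but say nothing about these calls. In each of them 3 regions of the window had an unadjusted p under 0.05, and the score difference was 0.971 to 1.10 for region 14 and 1.22 to 1.44 for region 25. The lowest adjusted p of both regions came from log2 summit reads over background, also a setting added after the data were seen. Region 20 was called in that setting (0.00551) and on log2 fold enrichment (0.0409). These 2 scales also called more regions genome-wide, 8090 of 41026 and 4739 of 41182, where the within-list ranks called 2478 of 41182.

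The tallest regions of the cluster other than region 8 overlapped between the groups. Region 12, in an intron of Gimap4, had a fold enrichment of 16.2, 16.1 and 13.4 in controls, against 16.6, 15.05 and 14.8 under MMF. Region 27, 31244 bp upstream of the Gimap3 start, had 17.7, 16.3 and 19.2 against 22.7, 18.4 and 14.97. Region 28, between Gimap3 and Tmem176b, had 15.2, 14.04 and 12.9 against 20.3, 15.4 and 13.5. Neither these nor the regions at the starts of Zfp775, Gimap9 and Gimap5 passed the test, with adjusted p from 0.453 (region 28) to 0.966 (region 1, at Zfp775).

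**Figure D3:**
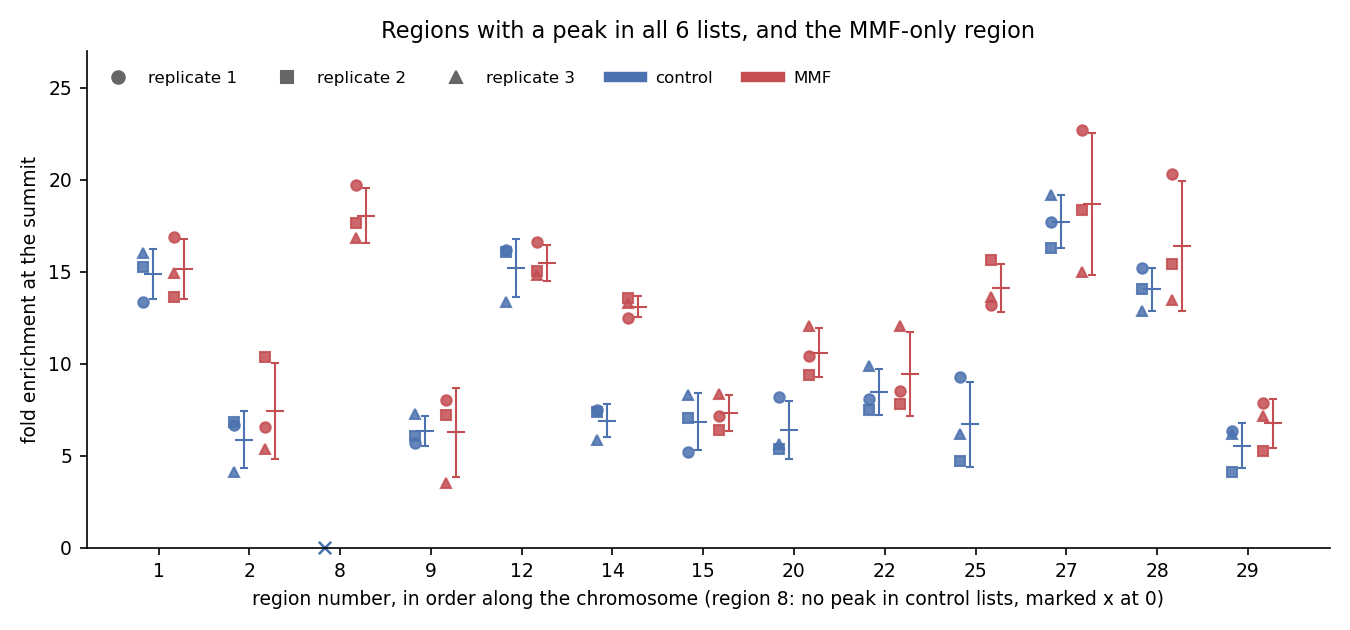
Fold enrichment at the summit (vertical axis) in each control (blue) and MMF (red) sample for the 12 regions with a peak in all 6 lists and for region 8 (horizontal axis, in order along the chromosome). Symbols give the replicate, and bars the mean and SD of 3 samples. Regions 14, 20 and 25 are those where the red symbols all stand above the blue ones.

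Apart from region 8, the regions in 1 to 5 lists were low, from a fold enrichment of 3.52 (region 30, in Tmem176b) to 9.83 (region 24, 1322 bp upstream of the Gimap3 start). Of the 9 found in a single list, 7 came from an MMF list and 2 from control replicate 2. The MMF lists were the longer ones and no such split over all regions is given, so this count is no result about the cluster. Region 13, past the 3′ end of Gimap4, had more control than MMF peaks, with 4.05, 5.91 and 5.55 in the control samples and a peak of 4.69 in MMF replicate 2 alone. Region 10, in an exon of Gimap9, had a peak of 3.98 and 4.05 in MMF replicates 1 and 3 and none elsewhere. Such peaks had few reads, so that absence from a list says little at this depth.

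Accessibility at the starts of the Gimap genes themselves was patchy and did not separate the groups. For each gene the percentile rank of the highest peak within 1000 bp of a start was taken, with 0 for no peak, and compared by an exact two-sided permutation test, whose smallest p with 3 against 3 is 0.1. None of the 8 genes had non-overlapping groups. Of the 6 with a peak, 4 had a higher mean with MMF and 2 a lower one. Of all genes with a promoter peak, 49.8% had a higher mean, so these few genes are no result by direction. With lists of equal length all 5 that kept a peak had a lower mean, Gimap5 by -9.56 points. That cut removes peaks mainly from the longer MMF lists, and a lost peak counts as 0, which lowers MMF ranks by construction. Gimap5 lost no peak. It kept a peak in 3 control and 3 MMF lists, and its ranks within the shortened lists averaged 60.8 and 51.2. No share of all genes with a lower mean is given for this cut, so it is no result about these promoters. With uncut lists, 13925 protein-coding genes had a promoter peak. Of these, 8.79% had every MMF rank above every control rank and 8.42% the reverse.

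Gimap5, which keeps T and B cells alive, had the most accessible promoter of the family. Its ranks were 60.9, 56.0 and 71.7 in controls, against 59.9, 57.7 and 82.2 under MMF, with means of 62.9 ± 8.01 and 66.6 ± 13.6 (SD, n = 3 each). The difference of 3.70 points was within the spread (exact permutation p = 0.7). Gimap9 was the only other member with a promoter peak in all 6 lists. Its ranks were 37.0, 42.7 and 53.6 in controls, against 56.1, 52.8 and 1.97 under MMF (difference -7.48, exact permutation p = 0.9), so the MMF mean was set by replicate 3. Without that replicate the difference was 10.0 points, still with exact permutation p = 0.3. This start is the nearest to region 8.

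Gimap6, which takes part in autophagy, lacked a promoter peak in MMF replicate 2 only. It stood at 39.4, 21.2 and 42.7 in controls, against 57.9, 0 and 52.6 under MMF (difference 2.42, exact permutation p = 1). Gimap8 lacked one in control replicate 2 and MMF replicate 3. Its ranks were 26.4, 0 and 54.1 against 34.5, 46.8 and 0 (difference 0.268, exact permutation p = 1). In both genes the spread within a group was far larger than the difference.

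The other members had little or no signal at their starts. Gimap7 had 1 promoter peak, in MMF replicate 2 at a rank of 8.997, and Gimap1, needed by mature lymphocytes, had 1, in control replicate 2 at 24.9. Gimap4, a regulator of T cell death, and Gimap3, the close relative of Gimap5, had none in any list. The peaks nearest to their starts were region 12, 2689 bp into Gimap4, and region 23, in MMF replicate 3 alone, 1122 bp from a start of Gimap3. Region 23 consists of repeated sequence, with 0 of its 120 words of 31 bases found once. With promoters widened to 2500 bp on either side, all 8 genes had a peak in some list. Gimap1 then took in region 20, and its difference turned from -8.31 to 29.2 points (exact permutation p = 0.1, the smallest possible).

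**Figure D4:**
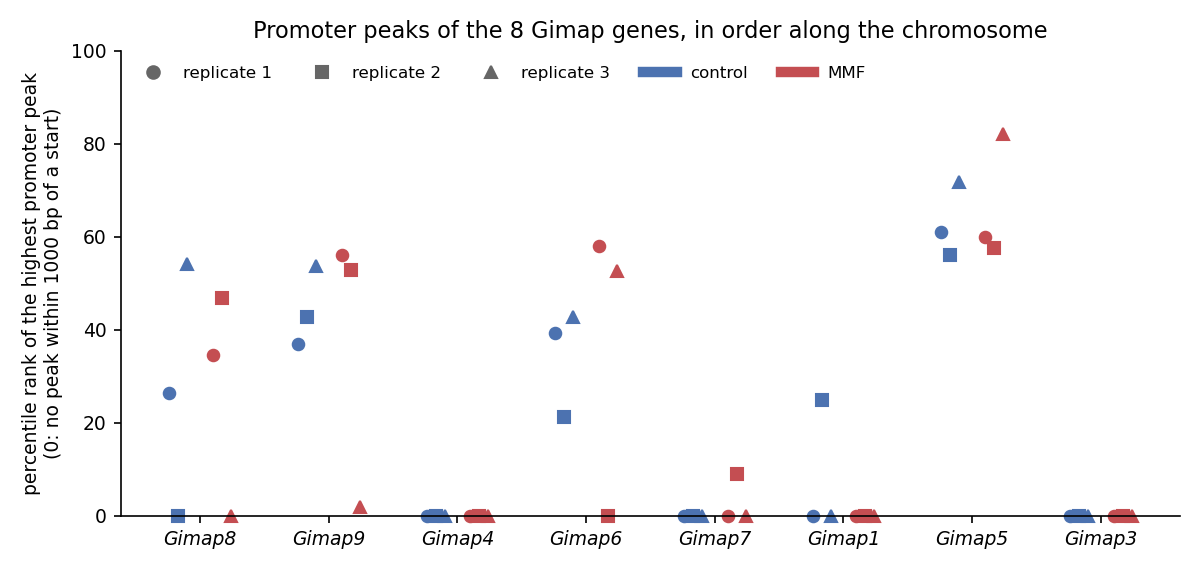
Percentile rank of the highest peak within 1000 bp of a start (vertical axis, 0 for no peak) for the 8 Gimap genes (horizontal axis) in each control (blue) and MMF (red) sample, with symbols for the replicate. Blue and red symbols overlap in every gene.

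The genes that flank the cluster had no separation either. Zfp775, a zinc finger gene, had high ranks of 85.7, 90.9 and 93.4 in controls, against 93.4, 86.4 and 91.2 under MMF. AI854703 had a peak in control replicate 1 and MMF replicates 1 and 2, at 24.1, 57.9 and 22.2. Tmem176a, a membrane protein gene of myeloid cells, had a single peak, in control replicate 2 at 11.1, and its neighbour Tmem176b had none. Gm28053, whose starts lie by those of Gimap7 and Gimap1, had the peaks already given for them, and reads there cannot be told apart between these genes.

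The Gimap promoters were set beside lists of genes that share their cells, their enzyme activity or their partners, all chosen with earlier results of these data known. Of 19 T and NK cell markers, 8 had a promoter peak, 6 of them in all lists, beside 63.6% and 53.3% of all protein-coding genes. Cd3d, Cd3e, Cd3g, Cd4, Cd8a and Lck had none. Cd5, a receptor of T cells, had ranks of 88.1, 82.5 and 85.1 in controls, against 93.5, 92.6 and 96.2 under MMF, while Tcf7, a factor of T cell progenitors, had 77.4, 51.4 and 72.6 against 40.4, 47.7 and 49.1. The groups did not overlap in these 2 genes, in opposite directions, beside 8.79% of all genes higher and 8.42% lower. This is near the background. Bcl11b, a T cell factor, averaged 35.2 ± 15.7 against 57.0 ± 7.35 (SD, n = 3 each), and Lat, the adaptor of the T cell receptor, 72.2 ± 12.8 against 61.8 ± 4.42 (SD, n = 3 each), and both overlapped. The summed promoter reads over background of the list lay between 206 and 239 in controls and between 211 and 244 under MMF. No sum over all genes stands beside these sums, here or for the lists below, so they are values only.

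Of 10 B cell markers, 3 had a promoter peak, beside 63.6% of all genes, and Cd79a, Ms4a1 and Pax5 had none. Blnk, an adaptor of the B cell receptor, averaged 35.3 ± 10.6 in the control and 54.2 ± 7.05 in the MMF samples (SD, n = 3 each), without overlap. Cd79b, a chain of that receptor, had a peak in MMF replicates 1 and 3 only. The summed reads over background of this list, which rest on those 3 genes, lay between 39.0 and 48.4 in controls and between 68.0 and 96.1 under MMF. Whether other cells had a part in the values of the cluster was not tested.

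Mature myeloid markers had the highest median difference of the lists, 19.3 points. Of the 11 genes, 10 had a higher mean rank with MMF, beside 49.8% of all genes with a promoter peak. In 5 of the 11 the groups did not overlap, all higher, beside the 8.79% of all genes. Ngp, a granule protein of neutrophils, averaged 14.5 ± 12.6 in the control and 67.7 ± 4.24 in the MMF samples, and Camp, the cathelicidin, 57.5 ± 27.3 and 91.5 ± 4.61 (SD, n = 3 each). Cd14 was the exception, with 40.1 ± 6.13 and 35.7 ± 5.06 (SD, n = 3 each). The summed reads over background of the list lay between 171 and 235 in controls and between 424 and 427 under MMF. Of 12 progenitor markers, 10 had a promoter peak, beside 63.6% of all genes. In 4 of them the groups did not overlap, all higher, beside the same 8.79% of all genes. Csf1r and Csf3r, the receptors of macrophage and granulocyte growth factors, went from control means of 5.56 ± 8.01 and 30.1 ± 11.9 to MMF means of 57.1 ± 5.89 and 62.5 ± 1.12 (SD, n = 3 each), without overlap. Flt3 and Cebpa differed by -5.48 and -3.56 points, with overlap. The summed reads over background of this list lay between 357 and 404 in controls and between 463 and 524 under MMF. The part of these changes in the values of the cluster was not tested.

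Erythroid and megakaryocyte markers were mixed. Of 8 genes, 6 had a promoter peak, beside 63.6% of all protein-coding genes. None had non-overlapping groups, beside 8.79% of all genes higher and 8.42% lower, which is near the background for so few genes. Epor and Gp9 had the largest positive differences, of 16.8 and 6.28 points, and Pf4 and Klf1 the largest negative ones, of -7.52 and -3.10. The summed reads over background lay between 152 and 185 in controls and between 168 and 176 under MMF.

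Interferon-inducible GTPases are a separate GTPase family of immune defence. Promoter peaks in all lists were found at 10 of the 14 genes matched, beside 53.3% of all protein-coding genes. Of these 10, 8 had a higher mean with MMF, beside 6930 of all 13925 genes, and 3 had non-overlapping groups, all higher, beside 8.79% of all genes higher and 8.42% lower. Their summed reads over background were 303 to 343 in controls, against 376 to 448 under MMF. Ifi47 stood at 15.7, 64.2 and 51.2 in controls, against 85.1, 86.3 and 87.7 under MMF. Irgm1, which acts in autophagy, stood at 6.88, 36.2 and 16.5 against 51.2, 62.3 and 69.3. In both genes every MMF value lay above every control value (exact permutation p = 0.1, the smallest possible). Mx1 and Gbp3 differed by -3.97 and -1.77 points, with overlap.

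All 7 Bcl2 family genes had promoter peaks in every list, beside 53.3% of all protein-coding genes. None had non-overlapping groups in rank, beside 8.79% of all genes higher and 8.42% lower, which is near the background for so few genes. The summed promoter reads over background of the 7 genes were 657 to 680 in controls, against 583 to 627 under MMF. These sums did not overlap and were lower with MMF. With no such sum over all genes to set beside it, whether this is particular to the list was not tested. For the Gimap genes the sums were 56.3 to 82.2 and 59.1 to 70.4. The rank difference ran from -11.5 points for Bcl2l11, the death-promoting Bim, to 5.16 for Bak1, a pore former of mitochondria, with -5.999 for Bcl2 and 0.923 for Bax. The median difference was -0.346 points, beside 1.35 for the 6 Gimap genes with a promoter peak and -0.0184 over all 13925 genes.

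**Figure D5:**
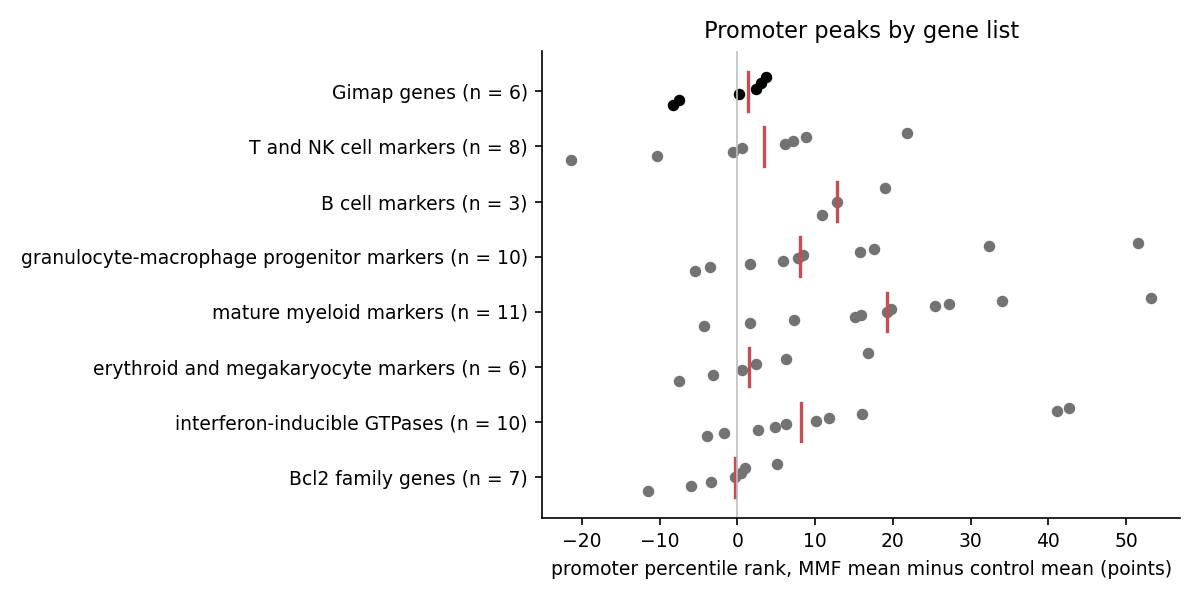
Difference of the mean promoter rank, MMF minus control in percentile points (horizontal axis), for every gene with a promoter peak in some list, by gene list (vertical axis, n genes), with the median as a red bar. The 6 Gimap genes lie between -8.31 and 3.70, while mature myeloid markers have a median of 19.3.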

How the data were processed

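ATAC-seq of murine MLL-AF9 L-GMP cells, 3 control and 3 MMF samples, was available as 1 peak list per sample. According to the labels and the methods, the authors trimmed reads with Trim Galore, aligned them to mm10 by Bowtie2 and ran MACS2 peak calling sample by sample (versions not given in the sources used here). The deposited lists give for each peak the fold enrichment (a ratio over the local background), the −log10 p-value and the −log10 q-value. These values are not read counts, so no count model was used. Reads per sample are unknown, which limits the precision of every value. The integer score that MACS2 wrote for the authors repeats the −log10 p-value times 10 in the deposited lists and was not used.

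Peaks on chromosomes 1 to 19, X and Y were kept (between 0.225% and 0.270% of each list lay elsewhere), and those sharing at least 1 bp were merged across lists. The reference was GRCm38, the sequence of mm10, and no region ran past a chromosome end. Fold enrichment was ranked within each list (percentile 0 to 100). On normal scores of these ranks, limma 3.58.1 (lmFit, eBayes) compared the regions found in every list, at an adjusted p of 0.05, and single genes with exact permutation tests. Summit reads and background were solved from fold enrichment and p, and came out whole (to within 0.002 of the deposited −log10 p) for 100% of peaks with −log10 p up to 290. This and the limma step were tested on simulated data. Motifs and words of 31 bases were read from the genome with pysam 0.24.0.

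The members, gene lists, motifs and tests were chosen with earlier results of these data known. Named were the 8 Gimap genes, all protein-coding genes with a start in the window, the 5 regions of most similar ranks, and the 2 genes of each list with the largest difference in either direction. Other genes were named after their values were seen. Mx2 of the interferon-inducible list was not matched. At most 681 peak intervals were identical between 2 lists. Replicate numbers gave no sign of a strong pairing. Deviations from the group means of same-numbered samples correlated by 0.00786, 0.00406 and 0.00581. Those of other-numbered samples correlated by -0.00668 to 0.000547, so same-numbered values were higher but all were small.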

Additional observations from a re-analysis of the deposited data

How the results depend on the processing

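Values of the cluster depended mostly on list length and on single samples. With lists cut to 58496 peaks, the difference in peaks per sample turned from 4.33 to -2. In that setting limma called 0 of the 9 shared regions, beside 1158 of 35988 genome-wide. Over all regions, 2020 were then gained and 1175 lost, against 6772 and 205 with uncut lists. The mean rank of region 8 was 94.6. By this cut, which falls mainly on the MMF lists, 0 Gimap promoters had a higher mean with MMF. Gimap8 stood at -17.3, Gimap6 at -6.87 and Gimap5 at -9.56 points. Ranked by −log10 p, limma called 1 region of the window, beside 4025 of 41182 genome-wide, where ranks by fold enrichment gave 2478. In that setting region 8 had a mean rank of 89.5 and Gimap8 turned to -0.941 points. In summit reads over background, region 8 had 57.2, and Gimap8 (-1.04), Gimap9 (0.312) and Gimap6 (-1.04) turned sign. Within the bounds of the Gimap genes the difference was 1.67 peaks and limma called 1 region. Requiring 2 of 3 lists gave 2 gained regions (regions 8 and 10), and requiring coverage of 50% of a region gave 1 lost region (region 13). A promoter of 2500 bp turned Gimap1 to 29.2 points. With the replicate number as a block limma called 0 regions (689 instead of 2478 genome-wide), and with ranks among the shared regions 0. At an unadjusted p under 0.05 these 2 settings gave 3 and 2 regions. The cause of these changes was not tested.

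Leaving out 1 sample gave a difference of 3.83 to 5.33 peaks, 1 to 2 gained regions (region 5 without control replicate 2, region 10 without MMF replicate 2), 0 to 1 lost regions (region 13 without MMF replicate 2), 0 to 2 called regions (without any 1 MMF sample limma called 0 regions genome-wide), a mean rank of 95.6 to 96.7 for region 8, and 2 to 4 promoters with a higher mean. The promoter difference ran from -13.1 to 13.9 points for Gimap8, from -17.0 to 10.0 for Gimap9, from -8.12 to 20.8 for Gimap6 and from -4.11 to 8.16 for Gimap5. A stricter q (−log10 q of at least 2) left the numbers of gained, lost, called and promoter results as they were. Peak lists hold no value where no peak was called, so weak signal in the control samples at region 8 could not be measured.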
